A study of Mus musculus with 12 samples.

Results

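BMP and TGF-beta signalling in adult mouse brain endothelium was followed through 10 genes: the receptor genes Acvrl1, Eng, Bmpr2, Tgfbr1 and Tgfbr2, the inhibitory Smad genes Smad6 and Smad7, the target genes Id1 and Id3, and the secreted BMP antagonist Grem1. They were chosen by name as core components of the pathway, with earlier results of these data known, and make up 10 of the 21638 genes in the count table. All 10 passed the minimum mean count of 10 over the 12 libraries that a gene needed to be tested, as did 12577 genes in all. Grem1 passed it only through the Hdac2 ECKO libraries and had no count in any wild-type library, so it is described by its counts, and tests are given for the other 9.

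The libraries were made from cortical endothelial cells sorted for CD31, an endothelial surface protein, with CD41-bearing platelets and CD45-bearing leukocytes gated out, and each group had 3 libraries. The groups were WT, Hdac2 ECKO (Hdac2lox/lox:Cdh5CreERT2, loss of a histone deacetylase), Ezh2 ECKO (Ezh2lox/lox:Cdh5CreERT2, loss of the Polycomb histone methyltransferase) and beta-catenin GOF (Ctnnb1lox/lox:Cdh5CreERT2, constitutively active beta-catenin). Cdh5CreERT2 is a Cre recombinase driven by the promoter of the endothelial cadherin gene and active only after tamoxifen, so recombination depends on how many endothelial cells the drug reaches. The mutant mice were given 5 doses of tamoxifen at 75 mg per kg of body weight and the brains were collected 2 months later. The labels do not state whether WT mice carried the Cre or received tamoxifen, nor the age and sex of the animals, nor whether the 3 libraries of a group came from separate mice. If they did not, p-values measure only the spread between these libraries, which may be technical.

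In this pathway, a ligand binds a pair of type II and type I receptors, and the type I receptor phosphorylates Smad proteins that enter the nucleus and change transcription. BMP ligands act in endothelium mainly through the type I receptor ALK1 (encoded by Acvrl1) with BMPR2 and the co-receptor endoglin (Eng), while TGF-beta ligands bind TGFBR2 and then ALK5 (Tgfbr1). Id1 and Id3 are direct BMP-Smad target genes whose products block bHLH transcription factors, and Smad6 and Smad7 are induced by the pathway and feed back to inhibit it. Gremlin-1 (Grem1) binds and sequesters BMP ligands outside the cell. Mutations of Acvrl1 and Eng cause hereditary haemorrhagic telangiectasia, a disease of vascular malformations that also affects the brain.

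Library totals ran from 24781070 to 36109975 counts. All 10 endothelial markers were above 0 in each of the 12 libraries, with a summed level of 4609 to 6657 CPM (counts per 1000000 counts of the library total, scaled by TMM). In WT, Hdac2 averaged 129 ± 30.1 CPM (SD, n = 3), against 96.5 ± 15.2 CPM in Hdac2 ECKO (n = 3), a difference that did not pass (edgeR adjusted p = 0.22). Beta-catenin GOF, in which Hdac2 is not targeted, was at 96.2 ± 10.1 CPM. In WT, Ezh2 averaged 6.75 ± 3.52 CPM, against 8.92 ± 3.36 CPM in the Ezh2 ECKO-labelled libraries, so the transcript was not lower there. Which exons the lox sites flank is not given in the sources used here, and a whole-gene count need not fall when part of a gene is removed. Ctnnb1 averaged 654 ± 138 CPM in WT, against 583 ± 109 CPM in beta-catenin GOF (edgeR adjusted p = 0.96), where the protein is activated rather than its gene lost. Red-cell marker transcripts differed widely, with summed levels from 36133 to 61379.5 CPM over the WT libraries, from 401 to 21676 CPM over Hdac2 ECKO, from 2519 to 6664 CPM over the Ezh2 ECKO-labelled libraries and from 509.8 to 35370.1 CPM over beta-catenin GOF, and their part in the differences below was not tested.

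Promoter windows of 250 bases immediately upstream of the RefSeq transcript start (RefSeq, GRCm38.p6) were searched for motifs in 7 of the 10 genes. There were 8 windows, because Tgfbr1 has 2. No window of Acvrl1, Id1 or Smad7 was searched, so the motif matches below do not cover these genes. The windows of Bmpr2 and Id3 and the second of Tgfbr1 lie inside the GENCODE M21 gene models used for the coordinates here, so by that annotation they are not upstream of the gene. The windows shown are the first of Tgfbr1, a gene that passed as higher in Hdac2 ECKO, and that of Grem1, which was counted in every Hdac2 ECKO library and in no WT library. Both carry the GC-rich BMP response motif GGCGCC, shown in capitals, and the Grem1 window also has the Smad-binding element CAGAC, likewise in capitals. Both are written 5′ to 3′ on the gene's own strand, at chr4:47352972-47353221 (plus strand) for Tgfbr1 and chr2:113758649-113758898 (minus strand) for Grem1.
Tgfbr1: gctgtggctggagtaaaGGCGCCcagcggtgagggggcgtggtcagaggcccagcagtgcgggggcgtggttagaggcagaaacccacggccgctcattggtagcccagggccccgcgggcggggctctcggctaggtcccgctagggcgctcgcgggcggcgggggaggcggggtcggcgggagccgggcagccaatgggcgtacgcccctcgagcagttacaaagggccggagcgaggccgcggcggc
Grem1: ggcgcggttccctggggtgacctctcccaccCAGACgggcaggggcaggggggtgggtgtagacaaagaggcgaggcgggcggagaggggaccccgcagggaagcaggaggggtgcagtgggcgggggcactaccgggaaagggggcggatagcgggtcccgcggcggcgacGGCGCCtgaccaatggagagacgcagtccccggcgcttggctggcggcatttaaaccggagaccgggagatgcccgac
GGCGCC, which reads the same on both strands, was in the windows of Grem1 and Tgfbr1 and in the Bmpr2 window inside its gene model, and in 9.59% of all 32851 promoter windows of this length. CAGAC on either strand (GTCTG on the other) was in the windows of Eng, Grem1 and Tgfbr2 and, inside the gene models, in those of Id3 and the second of Tgfbr1, against 42.2% of all windows. The E-box CANNTG was in 1 Eng window and in the second Tgfbr1 window, against 66.2% of all windows. Letter matches of this kind are descriptions of sequence and not mapped binding sites.

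In WT endothelium the target genes stood far above the receptors, and 4 of the 5 receptors above the inhibitory Smads. Per kilobase of gene model, Id1 had 1576 ± 140 CPM and Id3 1507 ± 85.8 CPM (SD, n = 3), and their ranges overlapped. The receptors Bmpr2 (27.4 ± 7.53 CPM per kb), Eng (23.3 ± 12.5), Tgfbr2 (18.0 ± 3.99) and Acvrl1 (17.8 ± 1.06) formed a lower tier in which each gene overlapped the next. Smad7 (7.67 ± 1.54 CPM per kb), Smad6 (4.69 ± 2.04) and the type I receptor Tgfbr1 (3.76 ± 0.946) were lower again, with overlapping neighbours, and their highest WT value lay below the lowest of Acvrl1. Grem1 was at 0 in all 3 WT libraries, where 3 counts would correspond to 0.0950 to 0.107 CPM.

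**Figure D1:**
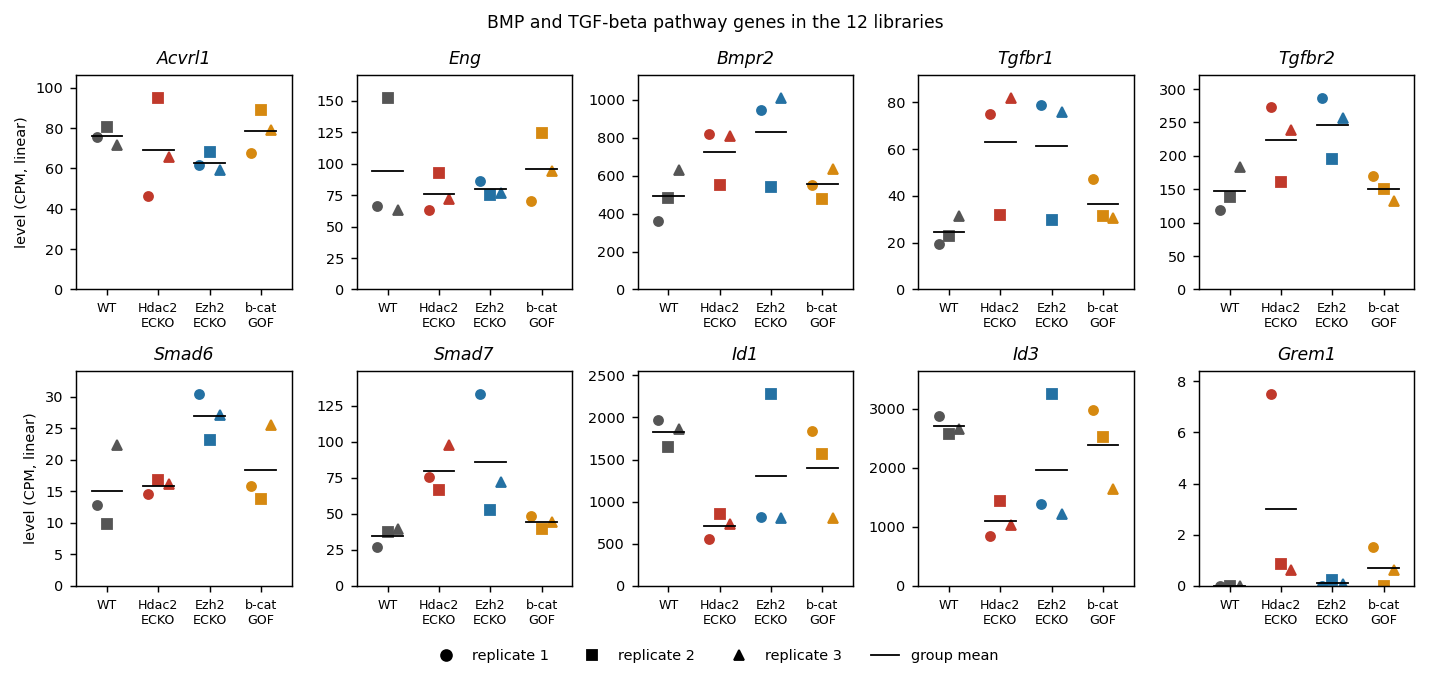
Level of each of the 10 genes in CPM (linear axis, a scale of its own for each gene) in the 12 libraries, by group on the horizontal axis. Symbols give the replicate and horizontal bars the group mean; Id1 and Id3 are low in all 3 Hdac2 ECKO libraries and in 2 of 3 Ezh2 ECKO-labelled libraries, and Tgfbr1 is high in the same 2.

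The targets were the most abundant members and fell in Hdac2 ECKO. Id3 (chr4:136143497-136145755, plus strand, mm10) was measured at 2870, 2572 and 2655 CPM in the WT libraries and at 836, 1437 and 1033 CPM in Hdac2 ECKO. In the Ezh2 ECKO-labelled libraries it was at 1390, 3246 and 1223 CPM, and in beta-catenin GOF at 2981, 2514 and 1634 CPM. All Hdac2 ECKO values lay below all WT values, whereas the second Ezh2 ECKO-labelled library had the highest Id3 level of the 12 and its companions were among the lowest. Id3 was 2.45-fold lower in Hdac2 ECKO than in WT (log2 difference -1.29, SE 0.36, edgeR quasi-likelihood test, adjusted p = 0.042). The call was lost with offsets for gene length and GC content (adjusted p = 0.069) and without any one of WT replicates 1 and 2 and Hdac2 ECKO replicates 1 and 3 (adjusted p = 0.11 to 0.17).

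Id1 (chr2:152736251-152737410, plus strand) followed Id3 closely over the libraries. Its levels were 1973, 1653 and 1859 CPM in WT, against 558, 856 and 730 CPM in Hdac2 ECKO. They were 822, 2279 and 801 CPM in the Ezh2 ECKO-labelled libraries and 1842, 1562 and 809 CPM in beta-catenin GOF. The groups WT and Hdac2 ECKO were again fully apart, and the second Ezh2 ECKO-labelled library was again the highest of all. Id1 was 2.56-fold lower in Hdac2 ECKO than in WT (log2 difference -1.36, SE 0.40, edgeR adjusted p = 0.046). This call was lost with the same offsets (adjusted p = 0.064) and without any one library of the pair of groups other than Hdac2 ECKO replicate 2 (adjusted p = 0.052 to 0.18). Beside these falls, 8 immediate early genes were read, whose transcription responds within minutes to stimulation and to cell isolation. Their summed level ran from 2979 to 9231 CPM over the WT libraries and from 1439 to 4233 CPM over Hdac2 ECKO. Junb, Atf3 and Ier2 passed as lower there, where 5.38% of all genes did, and 2 of the 8 had log2 differences above 0. That sum was 2368 to 3349 CPM in beta-catenin GOF, with all 8 genes below WT and none past the threshold. In the Ezh2 ECKO-labelled libraries it was 3468 to 3966 CPM, with 3 of the 8 above 0. There, 1 passed as lower, where 1.03% of all genes passed. The median log2 difference of the 8 genes in Hdac2 ECKO was -0.85, and 0.13 with the offsets; their part in the fall of Id1 and Id3 was not tested. In bulk RNA of sorted cells, fewer cells with a transcript and less transcript per cell cannot be told apart.

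Among the receptors, Tgfbr1, the type I receptor for TGF-beta, rose in Hdac2 ECKO. Tgfbr1 (chr4:47353222-47414931, plus strand) was at 19.4, 22.9 and 31.4 CPM in WT, at 74.8, 31.8 and 82.0 CPM in the Hdac2 ECKO libraries, at 78.7, 29.8 and 75.7 CPM in the Ezh2 ECKO-labelled libraries and at 47.1, 31.5 and 30.6 CPM in beta-catenin GOF. The second library of both knockout groups was near the highest WT value, which the lowest Hdac2 ECKO library exceeded only narrowly. The difference was 2.56-fold (log2 1.35, SE 0.40, edgeR adjusted p = 0.047). The call was lost with length and GC offsets (log2 0.86, adjusted p = 0.087) and without any one of WT replicates 1 and 2 and Hdac2 ECKO replicates 1 and 3 (adjusted p = 0.13 to 0.18).

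Tgfbr2, the type II receptor that binds TGF-beta first (chr9:116084293-116175360, minus strand), had a similar order of libraries. It was at 120, 138 and 183 CPM in WT, 273, 160 and 239 CPM in the Hdac2 ECKO libraries, 287, 195 and 257 CPM in the Ezh2 ECKO-labelled libraries and 169, 150 and 133 CPM in beta-catenin GOF. Hdac2 ECKO overlapped WT (log2 difference 0.61, SE 0.26, adjusted p = 0.12), and the Ezh2 ECKO-labelled libraries did not, although the test was not passed there either (0.75, SE 0.26, adjusted p = 0.11). Bmpr2, the type II receptor for BMPs (chr1:59763400-59879014, plus strand), was at 361, 484 and 631 CPM in WT, 819, 548 and 809 CPM in the Hdac2 ECKO libraries, 945, 540 and 1012 CPM in the Ezh2 ECKO-labelled libraries and 550, 477 and 638 CPM in beta-catenin GOF. Its knockout groups each had 1 library inside the WT range, and no contrast with WT passed (log2 difference 0.56, SE 0.29, adjusted p = 0.20 in Hdac2 ECKO; 0.76, SE 0.30, adjusted p = 0.14 in the Ezh2 ECKO-labelled libraries).

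The endothelial BMP type I receptor gene Acvrl1 and its co-receptor Eng passed the test in no contrast. Acvrl1 (chr15:101128522-101145336, plus strand) was at 75.6, 80.7 and 71.6 CPM in WT, 46.2, 95.1 and 65.7 CPM in the Hdac2 ECKO libraries, 61.5, 68.1 and 59.1 CPM in the Ezh2 ECKO-labelled libraries and 67.7, 88.8 and 79.2 CPM in beta-catenin GOF. The 3 Ezh2 ECKO-labelled libraries lay just below WT without passing the test (log2 difference -0.27, SE 0.26, adjusted p = 0.53). Against WT, the interval of plus or minus 2 SE ran from -0.65 to 0.38 in Hdac2 ECKO, so a fall as large as that of Id1 lies outside it and smaller changes of either sign inside it. Eng (chr2:32646595-32682669, plus strand) was at 66.4, 153 and 63.2 CPM in WT, 63.4, 92.7 and 72.3 CPM in the Hdac2 ECKO libraries, 86.5, 75.2 and 77.0 CPM in the Ezh2 ECKO-labelled libraries and 70.0, 124 and 94.1 CPM in beta-catenin GOF. The second WT library stood well above the other WT values and set the sign of the difference in both knockouts, which was -0.31 in Hdac2 ECKO and turned to 0.23 without that library. Acvrl1 overlaps the antisense gene Gm16031, Eng overlaps Fpgs on the opposite strand and Bmpr2 overlaps Gm38125, and since the use of strand in counting is not given in the sources used here, reads in those overlaps could come from either gene.

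The inhibitory Smad gene Smad7, whose product blocks type I receptors, rose in Hdac2 ECKO. Smad7 (chr18:75367529-75395935, plus strand) had WT levels of 26.7, 37.7 and 39.7 CPM, against 75.8, 66.5 and 97.9 CPM in Hdac2 ECKO. It was at 133, 52.7 and 72.0 CPM in the Ezh2 ECKO-labelled libraries and at 48.4, 39.8 and 44.3 CPM in beta-catenin GOF. Every mutant library exceeded every WT library for this gene, by a wide margin in Hdac2 ECKO and barely in the lowest beta-catenin GOF library. The Hdac2 ECKO difference was 2.31-fold (log2 1.21, SE 0.32, edgeR adjusted p = 0.039). It also passed with length and GC offsets, but not without any one of WT replicates 1 and 2 and Hdac2 ECKO replicates 1 and 3 (adjusted p = 0.10 to 0.16). In the Ezh2 ECKO-labelled libraries the difference was as large but missed the threshold (log2 1.31, SE 0.32, adjusted p = 0.056), and in beta-catenin GOF it was 0.35 (SE 0.31, adjusted p = 0.93).

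Smad6, the inhibitory Smad that acts mainly on BMP receptors, had another pattern. Smad6 (chr9:63953076-64022059, minus strand) was at 12.8, 9.88 and 22.4 CPM in WT, 14.6, 16.8 and 16.1 CPM in the Hdac2 ECKO libraries, 30.4, 23.1 and 27.1 CPM in the Ezh2 ECKO-labelled libraries and 15.8, 13.8 and 25.5 CPM in beta-catenin GOF. The Ezh2 ECKO-labelled libraries all lay above WT and above Hdac2 ECKO, while Hdac2 ECKO sat inside the WT range (log2 difference 0.07, SE 0.33, adjusted p = 0.90). The difference of the Ezh2 ECKO-labelled libraries from WT was 0.84 (SE 0.33, adjusted p = 0.14).

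The antagonist Grem1 (chr2:113746164-113758646, minus strand) was the only member with no count in WT. It had 198, 26 and 18 counts in the Hdac2 ECKO libraries (7.50, 0.848 and 0.624 CPM), 0, 6 and 2 counts in the Ezh2 ECKO-labelled libraries and 44, 0 and 22 counts in beta-catenin GOF. Detection was therefore complete in Hdac2 ECKO, partial in the other mutants and dominated by the first library of each of Hdac2 ECKO and beta-catenin GOF. All of these counts were even, as arises if the mates of a read pair are counted separately. The read pairs behind them, and behind the floor of 3 counts used below, may then be fewer than the counts. Against a floor of 3 counts in each WT library, the Hdac2 ECKO mean was at least 29.3-fold higher, and at least 7.22-fold higher without the library of 198 counts (Hdac2 ECKO replicate 1). No test is given, because Grem1 reached the minimum count only through this group. In beta-catenin GOF the mean was at least 6.99-fold higher than that floor, or at least 3.13-fold without replicate 1, and 1 of 3 libraries was at 0.

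Markers of pericytes and smooth muscle moved with Grem1 in part. The summed level of 10 such markers ran from 57.2 to 116.97 CPM over the WT libraries and from 116.66 to 311 CPM over Hdac2 ECKO, so the ranges met. Of the 9 tested, 4 passed as higher there (Pdgfrb, Rgs5, Cspg4 and Myh11), where 3.82% of all genes did. All 9 had log2 differences above 0, with a median of 2.52, or 2.21 with the offsets. The summed level was 52.1 to 70.6 CPM in the Ezh2 ECKO-labelled libraries and 106 to 370 CPM in beta-catenin GOF. Acta2, Tagln and Myh11, defining smooth muscle markers, were above 0 in all 12 libraries; Cnn1 was at 0 in 7 of 12, and none of the 10 was at 0 in an Hdac2 ECKO library. The first Hdac2 ECKO library and the first beta-catenin GOF library had both the most Grem1 and the most of these markers within their groups. Other libraries did not follow this order. Hdac2 ECKO replicate 3 had a higher marker sum than replicate 2 (227 against 116.66 CPM) but less Grem1 (0.624 against 0.848 CPM). WT replicate 3, with a marker sum of 116.97 CPM, had no Grem1 count. Beta-catenin GOF replicates 2 and 3 had nearly equal marker sums (105.5 and 106.0 CPM), with Grem1 at 0 and 0.639 CPM. Fibroblast and meningeal markers summed to 1.25 to 4.79 CPM in WT, 3.82 to 7.59 in Hdac2 ECKO, 0.512 to 6.29 in the Ezh2 ECKO-labelled libraries and 3.07 to 5.05 in beta-catenin GOF. All 4 tested had log2 differences above 0 in Hdac2 ECKO (median 2.11), and none passed. The part of such cells in the Grem1 counts was not tested.

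**Figure D2:**
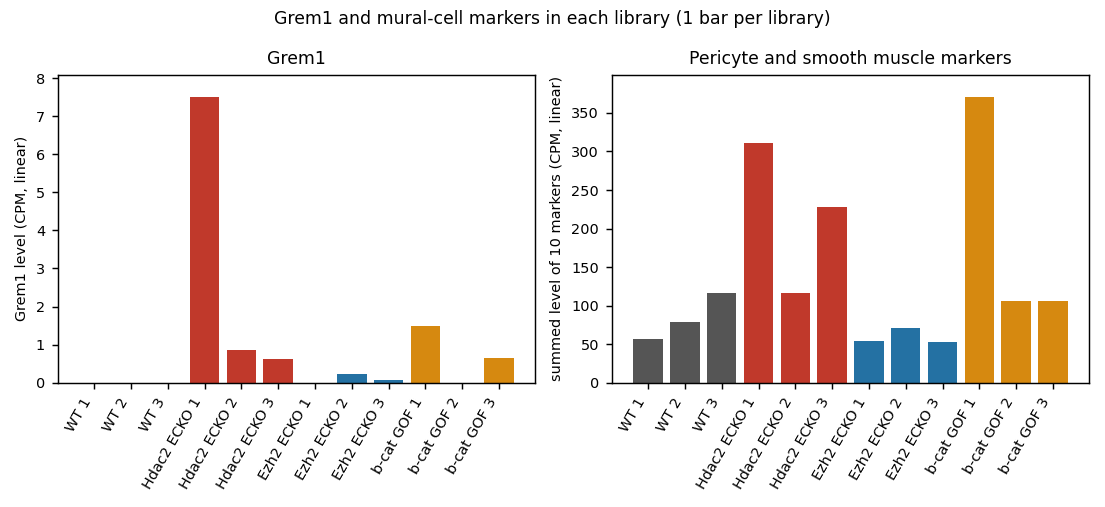
Left, Grem1 level in CPM in each of the 12 libraries (1 bar per library, linear axis from 0); right, summed CPM of 10 pericyte and smooth muscle markers in the same libraries. Grem1 is at 0 in all WT bars and highest in Hdac2 ECKO replicate 1 (7.50 CPM), and the marker sum is highest in beta-catenin GOF replicate 1 (370 CPM) and Hdac2 ECKO replicate 1 (311 CPM).

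The question posed by the contrast of Hdac2 ECKO with WT was which pathway transcripts change when endothelial Hdac2 is deleted. Of the 9 members other than Grem1, 5 had an unadjusted p under 0.05, against 33.1% of all genes tested. The edgeR threshold of adjusted p under 0.05 was passed by 4, with Tgfbr1 and Smad7 higher and Id1 and Id3 lower, against 9.20% of all genes (3.82% higher and 5.38% lower). Because the members were chosen with earlier results of these data known, these shares are a description and no test of the pathway. In each of the 4 the Hdac2 ECKO and WT ranges did not overlap, which held for 37.8% of all genes tested. The median log2 difference of the 9 was 0.07, or 0.32 with Grem1 added at its bound, and that of all genes was 0.10. None of the 4 calls survived the removal of WT replicate 1, WT replicate 2, Hdac2 ECKO replicate 1 or Hdac2 ECKO replicate 3, settings in which 0, 0, 3 and 0 genes of all were called. Without WT replicate 3, 3 of them passed (all but Id1), where 14.9% of all genes did, and without Hdac2 ECKO replicate 2 all 4 did, where 17.6% of all genes did. The directions of these 4 genes were kept in every one of the 6 fits, with log2 differences of -1.56 to -1.22 for Id1, -1.58 to -1.14 for Id3, 1.09 to 1.63 for Tgfbr1 and 1.02 to 1.31 for Smad7.

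Gene length moved with these differences. Over all 12577 genes tested, the log2 difference of Hdac2 ECKO from WT rose with gene length (Spearman 0.44 across genes, which are not independent replicates), and its median was -0.52 among the 20% of genes with the shortest models and 0.66 among the 20% with the longest. Id1 (1160 bases) and Id3 (1791 bases) are among the shortest 20% and Tgfbr2 (8187 bases) and Bmpr2 (17983 bases) among the longest, while Smad7 (4521 bases) and Tgfbr1 (6534 bases) lie between. By library, the slope of log2 CPM per doubling of gene length was -0.16 to -0.12 in WT, 0.07 to 0.25 in Hdac2 ECKO and -0.11 to -0.07 in beta-catenin GOF. In the Ezh2 ECKO-labelled libraries it was 0.14, -0.20 and 0.18, so that the second library, the one with the highest Id1 and Id3, lay with WT.

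With offsets that remove each library's trend on gene length and GC content, 1 of the 9 members other than Grem1 still passed in Hdac2 ECKO, Smad7 (log2 difference 1.23, edgeR adjusted p = 0.040), where 7.52% of all genes did. Id1 was then at -0.84 (adjusted p = 0.064), Id3 at -0.74 (adjusted p = 0.069) and Tgfbr1 at 0.86 (adjusted p = 0.087), all in the direction found without offsets. Bmpr2, the longest member, changed sign to -0.39, and Tgfbr2 went to 0.08. Whether the length trend is a property of the RNA or of the cells was not tested.

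**Figure D3:**
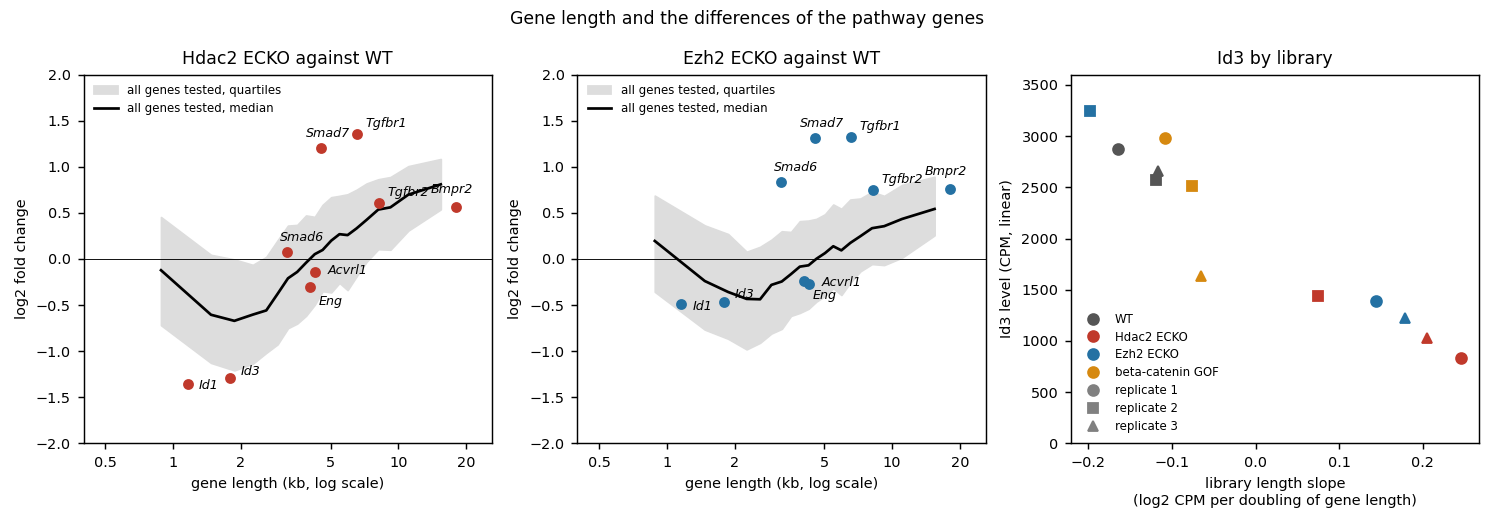
Log2 difference from WT against gene length (log axis, kb) for 9 members (points; Grem1 has no WT count and is not drawn) with the median and quartiles of all genes tested (line and band), for Hdac2 ECKO (left) and the Ezh2 ECKO-labelled libraries (middle); right, Id3 level in CPM against each library's slope of log2 CPM per doubling of gene length. Smad7 and Tgfbr1 lie above the band in both contrasts, Id1 and Id3 lie below it only in Hdac2 ECKO, and the libraries with slopes above 0 all have Id3 levels of at most 1437 CPM.

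**Figure D4:**
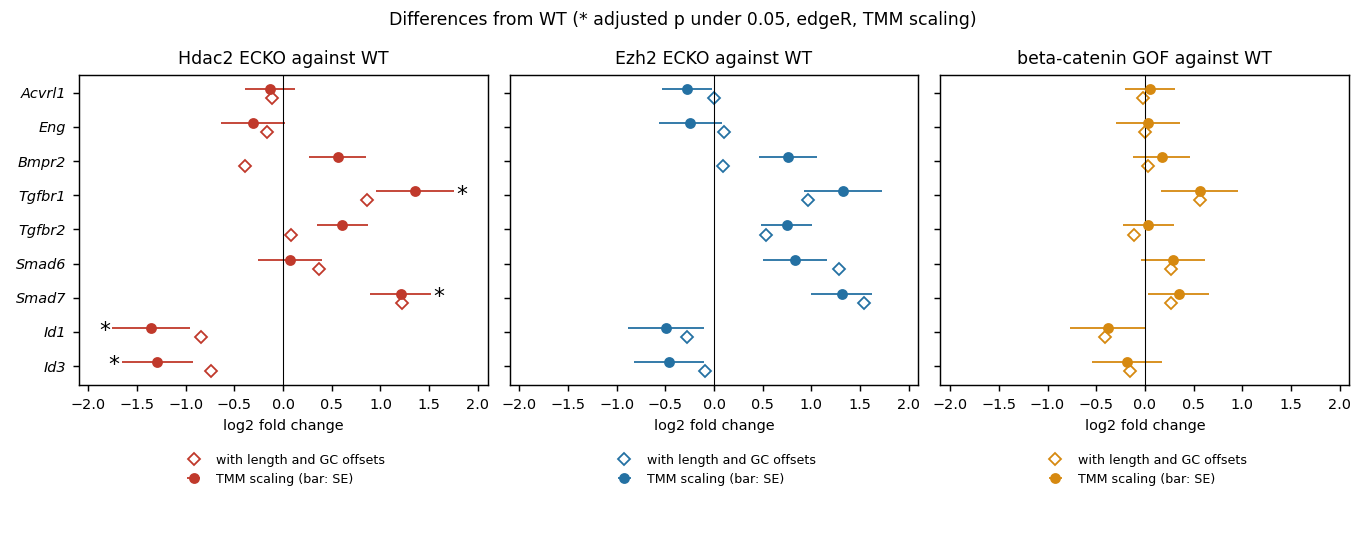
Log2 difference from WT of 9 members in the 3 mutant groups (filled points with SE bars: TMM scaling; open diamonds: with length and GC offsets; asterisk: adjusted p under 0.05, edgeR). Grem1, with no WT count, is not drawn; the asterisks fall on Tgfbr1, Smad7, Id1 and Id3 in Hdac2 ECKO, and the offsets bring Bmpr2 from 0.56 to -0.39 there.

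The corresponding contrast for Ezh2 asks the same of loss of the Polycomb methyltransferase. None of the 9 members other than Grem1 passed in the Ezh2 ECKO-labelled libraries against WT, where 1.03% of all genes passed. Of the 9, 5 had an unadjusted p under 0.05, against 24.7% of all genes. Limma voom with sample weights called 7, against 29.8% of all genes, and DESeq2 2, against 10.4%. On the log2 scale the inhibitory Smads were at 1.31 (Smad7, adjusted p = 0.056) and 0.84 (Smad6), and the receptors at 1.32 (Tgfbr1, SE 0.40, adjusted p = 0.082), 0.76 (Bmpr2, 0.09 with length and GC offsets), 0.75 (Tgfbr2), -0.24 (Eng) and -0.27 (Acvrl1). Tgfbr2, Smad6 and Smad7 lay above WT and Acvrl1 below it without overlap, which held for 22.0% of all genes. The median of the 9 members other than Grem1 was 0.75, or 0.11 with the offsets. That of all genes was 0.05, or 0.06 with the offsets. With Grem1 added at its lower bound here (at least 1.01-fold), the median was at least 0.38, a lower limit set by that bound. Id1 and Id3 were at -0.49 (SE 0.39, adjusted p = 0.45) and -0.47 (SE 0.36, adjusted p = 0.44).

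The second Ezh2 ECKO-labelled library decided these results. Without it, 6 members passed the edgeR threshold: Smad7 (log2 difference 1.57, adjusted p = 0.0092), Tgfbr1 (1.65, adjusted p = 0.012), Bmpr2 (0.99, adjusted p = 0.025) and Tgfbr2 (0.89, adjusted p = 0.032) were higher, and Id1 (-1.17, adjusted p = 0.026) and Id3 (-1.05, adjusted p = 0.031) were lower. The number of genes called in all then went from 129 to 2329, or 18.5% of those tested. The remaining pair of libraries had length slopes of 0.14 and 0.18, near those of Hdac2 ECKO replicates 1 and 3, and the part of that slope in the 6 calls was not tested. Without WT replicate 3, 2 members passed, Smad6 and Smad7, where 9.09% of all genes did. With length and GC offsets on all libraries, Smad7 alone of the members passed (1.54, adjusted p = 0.039), where 3.17% of all genes did.

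Constitutive beta-catenin was compared with WT in the same way, and no member passed, as no gene did (0% of genes tested). At an unadjusted p under 0.05 there were 763 genes (6.07%) and none of the 9 members other than Grem1, and DESeq2 called 38 genes and no member. The differences ranged from -0.38 (Id1, SE 0.39, adjusted p = 0.94) to 0.56 (Tgfbr1, SE 0.40, adjusted p = 0.91) among the 9 members other than Grem1, and 7 of these were above 0. Smad7 was the only member whose range did not overlap that of WT, against 12.7% of all genes. For Id3 the interval of plus or minus 2 SE was -0.90 to 0.53, so a fall of the size seen in Hdac2 ECKO lies outside it. Replicate 3 of beta-catenin GOF had the lowest Id1 (809 CPM) and Id3 (1634 CPM) of its group, and its companions were within or near the WT range.

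Direct contrasts between the mutants, which do not use the WT levels, tested whether the groups differed from each other. None of the 9 members other than Grem1 passed in any of the 3 contrasts. Of all genes, 0.0239% passed between the knockouts, 0.0716% between beta-catenin GOF and Hdac2 ECKO, and 0.0636% between beta-catenin GOF and the Ezh2 ECKO-labelled libraries. In the same order, 3, 4 and 2 of the 9 members other than Grem1 had an unadjusted p under 0.05, against 8.19%, 21.1% and 13.2% of all genes. Of these 9, the ranges of Smad6, then Smad7 and Id3, then Tgfbr2 and Smad7 did not overlap, against 13.2%, 32.0% and 16.6% of all genes. Id3 was 1.11 higher on the log2 scale in beta-catenin GOF than in Hdac2 ECKO (SE 0.36, adjusted p = 0.17), with no overlap, and Id1 0.97 higher (SE 0.39, adjusted p = 0.19). Smad7 was 0.86 lower there (interval of 2 SE, -1.48 to -0.23, adjusted p = 0.17) and 0.96 lower against the Ezh2 ECKO-labelled libraries (adjusted p = 0.29). Smad6 was 0.76 lower in Hdac2 ECKO than in the Ezh2 ECKO-labelled libraries (SE 0.33, adjusted p = 0.59), without overlap. So the calls in Hdac2 ECKO and their absence in the other mutants were not shown to differ by these tests. Tgfbr1 had almost the same level in both knockout groups (log2 difference 0.03, interval of 2 SE, -0.75 to 0.82).

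The rest of the pathway was read from a list of 58 ligands, receptors, Smads, antagonists, storage proteins and targets, of which 45 were tested. In Hdac2 ECKO 3 of the 45 passed, with Ccn2 and Skil higher and Bambi lower, a smaller share than the 9.20% of all genes, so the count sets nothing apart about the pathway. The median of the 45 was 0.47 against 0.10 for all genes, or 0.26 against -0.04 with length and GC offsets. In the Ezh2 ECKO-labelled libraries only Ccn2 of the 45 passed, where 1.03% of all genes did, with a median of 0.05, and in beta-catenin GOF none passed, with a median of 0.05. Bambi, which encodes a pseudoreceptor that dampens TGF-beta signalling, had WT levels of 96.1, 54.6 and 55.2 CPM, against 24.5, 24.8 and 26.7 CPM in Hdac2 ECKO (log2 difference -1.44, SE 0.43, edgeR adjusted p = 0.049). The 3 Hdac2 ECKO values were close together and well below WT, and with length and GC offsets the difference was -1.65 (adjusted p = 0.049). It was at 17.7, 50.3 and 21.8 CPM in the Ezh2 ECKO-labelled libraries, where the second library again stood nearest to WT.

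Ccn2, a matricellular protein gene induced by TGF-beta, was at 18.5, 14.2 and 20.1 CPM in the WT libraries, 35.6, 41.9 and 41.6 CPM in the Hdac2 ECKO libraries, and reached 69.2, 45.4 and 35.0 CPM in the Ezh2 ECKO-labelled libraries. Both knockout groups lay fully above WT (log2 difference 1.18, SE 0.33, edgeR adjusted p = 0.041 and 1.50, SE 0.33, adjusted p = 0.048). With the offsets these were 1.43 (adjusted p = 0.027) and 1.85 (adjusted p = 0.026). Skil, which encodes the Smad corepressor SnoN and is a long gene, averaged 47.5 ± 10.0 CPM in WT, against 102 ± 29.1 CPM in Hdac2 ECKO (log2 difference 1.11, SE 0.31, adjusted p = 0.043), and with the offsets its difference was 0.43 (adjusted p = 0.29). Like the members, Bambi, Ccn2 and Skil lost their Hdac2 ECKO calls without WT replicate 1, WT replicate 2, Hdac2 ECKO replicate 1 or Hdac2 ECKO replicate 3, and Bambi and Ccn2 also without Hdac2 ECKO replicate 2 (adjusted p = 0.054 and 0.051). The Ccn2 call in the Ezh2 ECKO-labelled libraries was lost without WT replicate 1, WT replicate 2 or Ezh2 ECKO replicates 1 or 3 (adjusted p = 0.10 to 0.18).

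Among the 7 ligand genes tested, Tgfb2 was the most abundant, at 112 ± 23.9 CPM in WT, and no ligand passed in any contrast with WT. Gdf2 and Bmp10, the circulating high-affinity ligands of ALK1, did not reach the minimum count for testing. The co-receptor Tgfbr3 (87.9 ± 12.9 CPM in WT) and the type II receptor Acvr2a (31.0 ± 5.88 CPM) led the other receptors, and the shared Smad4 (46.2 ± 5.46 CPM) and the BMP-specific Smad1 (40.0 ± 3.61 CPM) led the Smad transducers. None of the 6 receptors and none of the 6 Smad transducers tested passed in a contrast with WT. The latent TGF-beta binding protein gene Ltbp4 was at 103 ± 19.1 CPM in WT and led the 8 storage and activation genes tested, of which none passed. Among targets, Id2 averaged 598 ± 135 CPM in WT, against 343 ± 70.6 CPM in Hdac2 ECKO (log2 difference -0.80, SE 0.26, edgeR adjusted p = 0.060), with no overlap between the groups. Tmem100, a BMP target of arterial endothelium, averaged 148 ± 25.8 CPM in WT, against 77.9 ± 34.0 CPM in Hdac2 ECKO, also without overlap (-0.93, SE 0.45, adjusted p = 0.16), but at 193 ± 71.0 CPM in the Ezh2 ECKO-labelled libraries. No overlap between Hdac2 ECKO and WT held for 37.8% of all genes. Both genes are short, and bins of genes with median lengths of 1869 and 2591 bases had median log2 differences of -0.67 and -0.56 there. The part of length was not tested. Of the 14 targets and intracellular regulators tested, 9 were above 0 in Hdac2 ECKO (median 0.47, or 0.37 with the offsets).

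**Figure D5:**
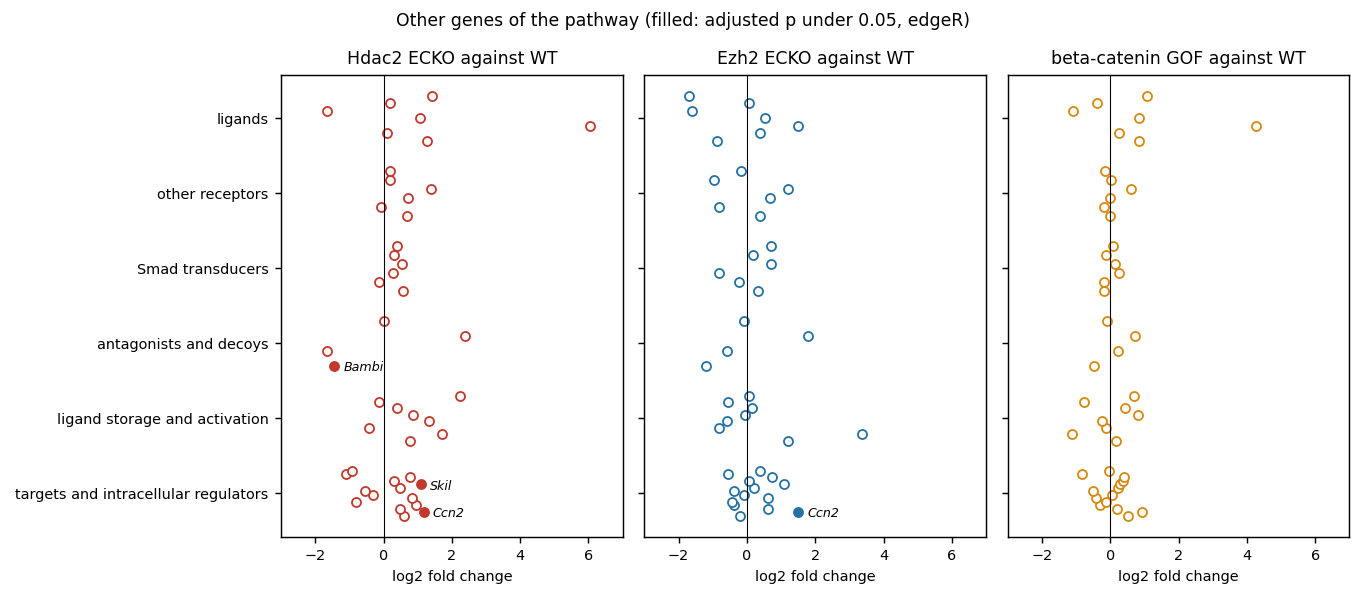
Log2 difference from WT of the 45 other pathway genes tested, by role (vertical axis), in the 3 mutant groups; filled points passed adjusted p under 0.05 (edgeR) and are named. Filled points are Bambi, Skil and Ccn2 in Hdac2 ECKO and Ccn2 in the Ezh2 ECKO-labelled libraries, and there are none in beta-catenin GOF.

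The profile of each member over the 12 libraries was set beside those of all other tested genes (Pearson r of log2(CPM + 0.5), given as a description, since the points share libraries, depth and the length trend). Id1 was most like Id3 (r = 0.98), then Sertad1 (0.97), while Id3 was most like Rnaset2b, whose reads may be shared with its near-identical copy Rnaset2a, and Gm49721 (0.99 each). Tgfbr1 was most like Lats1 (0.99) and Adnp (0.98), Bmpr2 like Agpat4 (0.98) and Tbc1d12 (0.97), and Tgfbr2 like Setd1b and Cobll1 (0.98 each). Smad7 went with Snrk (0.97) and Acap2 (0.96), and Smad6 with Uchl3 (0.88) and Cd302 (0.86). Acvrl1 was nearest to Dgat1 (0.92) and Ptdss1 (0.91), Eng to Cacnb1 (0.90) and Itga5 (0.84), and Grem1 to Irs2 and Gpr20 (0.91 each). The likeness was thus weakest for Smad6 and Eng and closest for Id3 and Tgfbr1.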

How the data were processed

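RNA of sorted endothelial cells was amplified with a SMART-Seq kit for few cells and sequenced, per the labels' protocols. The submitters' processing notes name FastQC, cutadapt, STAR, featureCounts, DESeq2 and the mm10 build, with no role or version. The deposited table is titled normalized, but its values are whole-number counts: totals ran from 24781070 to 36109975, and 79.5% to 84.0% of the values from 10 to 50 were even, as arises if the mates of a read pair are counted separately. They were therefore tested as counts, where the plan had allowed for either. Coordinates matched GENCODE M21 (GRCm38) for 98.4% of genes and are printed from 1. Counting noise is small at these depths, and intervals cover the spread between libraries.

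Groups and replicate numbers came from the sample titles. Differences were tested in R 4.3.3 with edgeR 4.0.16 by its quasi-likelihood F test, with TMM scaling and 1 model over 12 libraries without a block, on genes averaging 10 counts or more, with Benjamini-Hochberg adjustment within each of 6 contrasts and a threshold of 0.05. SEs were derived from the F statistic. The 3 contrasts with WT share the WT libraries. On simulated counts for Hdac2 ECKO against WT (12577 genes, 200 changed), 7% of changes of log2 size 1 and 64% of size 2 were recovered, and 6.58% of calls were unchanged genes. Any pair of libraries of a group differed by more than sampling noise (chi-square per degree of freedom at least 67.4). Alternatives were other scalings, filters, limma 3.58.1 voom with sample weights, DESeq2 1.42.0, only the groups compared, a replicate block, offsets on length and GC (splines with 4 degrees of freedom, 12386 genes) and each library left out.

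Correlations of the deviations of same-numbered libraries were 0.16, 0.38 and 0.11 in Hdac2 ECKO against Ezh2 ECKO. They were 0.17, 0.20 and -0.04 in beta-catenin GOF against Hdac2 ECKO, and 0.01, 0.01 and 0.04 against Ezh2 ECKO, where each library correlated best with its own number. In the contrasts with WT they ran from -0.22 to 0.09. The labels name no shared litter or day, and the block left 0 members other than Grem1 called in the contrasts between mutants. The genes named were all members, the targeted genes, other pathway genes past the threshold or with the highest mean CPM in their role, and the 2 genes most like each member. The members and lists were chosen with earlier results of these data known. Sex-linked transcripts (Xist, Y-linked genes) were left out.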

Additional observations from a re-analysis of the deposited data

How the results depend on the processing

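Of the 9 members other than Grem1, 4 were called in Hdac2 ECKO against WT. Other scalings, filters, DESeq2, voom weights, 2 groups alone or the replicate block gave 3 (RLE scaling) to 6 (voom). With length and GC offsets 1 was called, also with the replicate block added, and leaving out 1 library gave 0 to 4. In Ezh2 ECKO against WT, 0 became 2 with no filter, 1 with a mean count of at least 50, 2 with DESeq2, 7 with voom weights, 1 with the replicate block (Smad7, adjusted p = 0.042), 1 with the offsets and 2 with both, and 0 to 6 with 1 library left out. In beta-catenin GOF against WT and Hdac2 ECKO against Ezh2 ECKO, none of the 9 was called under any setting. In beta-catenin GOF against Hdac2 ECKO the unfiltered test called 2 of them. DESeq2 called 1 and voom 5 in the last, and voom called 4 in beta-catenin GOF against Ezh2 ECKO, where leaving out 1 library gave 0 to 1. The replicate block changed no other count of members. In the contrasts with WT, only replicate 3 in Hdac2 ECKO against WT correlated best with its own number (r = 0.08).

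Genes called over the whole table in Hdac2 ECKO against WT were 480 higher and 677 lower. They were 1469 and 357 with library size alone, which moved the median of all genes from 0.10 to 0.34, 238 and 694 with the offsets, 905 and 1374 with no filter, 1039 and 1514 with DESeq2, 2729 and 2645 with voom, and 717 and 1115 with the replicate block. In Ezh2 ECKO against WT they were 43 and 86, and in the same order 17 and 13, 232 and 161, 556 and 811, 618 and 662, 1850 and 1893, and 176 and 360; RLE scaling gave 28 and 48, a mean count of at least 50 gave 80 and 139, and 2 groups alone 8 and 9. In beta-catenin GOF against WT, 0 became 61 and 96 with no filter, 13 and 25 with DESeq2 and 6 and 20 with voom. Hdac2 ECKO against Ezh2 ECKO went from 1 and 2 to 103 and 96 with no filter, 57 and 41 with DESeq2 and 2 and 9 with voom. For beta-catenin GOF against Hdac2 ECKO, 6 and 3 became 715 and 263, 422 and 199, and 1812 and 1527, and 0 and 1 with the offsets. Against Ezh2 ECKO, 3 and 5 became 226 and 133, 86 and 58, and 838 and 628, and 6 and 7 with the replicate block.

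Signs of small differences turned. With library size alone, in Hdac2 ECKO against WT Acvrl1 was 0.13, against Ezh2 ECKO Eng 0.17, Tgfbr2 0.054 and Smad7 0.089, and in beta-catenin GOF against Hdac2 ECKO Acvrl1 -0.018. With offsets, and with offsets and block, Bmpr2 was -0.39 and -0.40 in Hdac2 ECKO and Eng 0.11 and 0.18 in Ezh2 ECKO against WT. In beta-catenin GOF against WT, Acvrl1 was -0.019 and -0.023, Tgfbr2 -0.11 in both, and Eng -0.0039 with offsets and -0.18 with voom. In Hdac2 ECKO against Ezh2 ECKO, Acvrl1 was -0.11 and -0.12, and Tgfbr1 -0.11 and -0.12, with -0.0056 by RLE scaling and -0.0055 by DESeq2. In beta-catenin GOF against Hdac2 ECKO, Bmpr2 was 0.42 in both and Smad6 -0.10 and -0.19. Against Ezh2 ECKO, Acvrl1 was -0.018 and -0.021, Eng -0.11 and -0.15, Id1 -0.13 and -0.14 and Id3 -0.061 and -0.056.

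Leaving out 1 library, the ranges that crossed 0 were -0.49 to 0.072 (Acvrl1), -0.53 to 0.23 (Eng) and -0.16 to 0.48 (Smad6) in Hdac2 ECKO, and -0.46 to 0.30 (Eng) in Ezh2 ECKO. In beta-catenin GOF they were -0.048 to 0.15 (Acvrl1), -0.20 to 0.57 (Eng), -0.0080 to 0.39 (Bmpr2), -0.092 to 0.23 (Tgfbr2), -0.026 to 0.69 (Smad6) and -0.38 to 0.026 (Id3). In Hdac2 ECKO against Ezh2 ECKO they were -0.20 to 0.36 (Acvrl1), -0.27 to 0.055 (Eng), -0.30 to 0.31 (Tgfbr1), -0.31 to 0.018 (Tgfbr2) and -0.36 to 0.35 (Smad7). In beta-catenin GOF they were -0.031 to 0.53 (Acvrl1) and -0.10 to 0.38 (Smad6) against Hdac2 ECKO, and -0.14 to 0.79 (Id1) against Ezh2 ECKO. The cause was not tested.

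The other pathway genes called were run under the same alternatives after seeing the data. Bambi missed the threshold with library size alone (-1.20, adjusted p = 0.056) and Ccn2 in Ezh2 ECKO under RLE scaling, library size alone and 2 groups alone (adjusted p = 0.051 to 0.11).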
